A study of Rattus norvegicus with 4 samples.

Results

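Circular RNAs (circRNAs) from genes of protein and lipid kinases and of phosphatases were examined in rat sciatic nerve after crush. Host genes were taken by the start of their symbol: Map2k, Map3k, Map4k, Mapk, Stk without Stk39, Camk, Prk, Pik3, Pip4k, Pip5k, Rps6k, Ppp, Ptpn, Ptpr, Dusp, Csnk, Cdk, Akt, Wnk, Tlk, Mast, Mark, Dyrk and Taok. This gave 83 of 2327 host genes and 157 of 4942 circRNAs. The nerves came from Sprague-Dawley rats at postnatal week 6. Crush was applied over 3 mm in 2 bouts of 15 s, 3 s apart, while sham surgery only exposed the nerve. Both groups were sampled 24 h after surgery as the 3 mm segment with 1 mm of nerve at either end, with 2 libraries each. Whether libraries of 1 group are from different animals is not in the labels. The p-values below therefore cover only the spread between these libraries, which may be technical.

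Kinases add phosphate groups to proteins or lipids and phosphatases remove them. In nerve these enzymes carry signals of growth factors, stress and calcium to Schwann cells, axons, vessels and immune cells, and MAP kinase and phosphoinositide 3-kinase pathways are known for their part in the Schwann cell response to injury. A circRNA arises when a downstream splice site of a transcript is joined back to an upstream one, so a read across this back-splice counts the circle and not the linear mRNA. In whole nerve, fewer cells of a type and less circRNA per cell cannot be told apart.

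The libraries held 8250 and 9027 junction reads in crushed nerve and 9018 and 8726 after sham. Markers were read as circRNA hosts. Of 22 leukocyte markers, 12 had reads, with 87 and 80 in all in crushed nerve, against 3 and 5 after sham, while Cd68, Csf1r, Itgax, Lyz2 and S100a8 were listed at 0. Of 19 Schwann cell markers, only Ank3, Dst, Mbp and Pmp22 had reads, 2 and 7 in crushed nerve, against 2 and 27 after sham, and Mag, S100b and Sox10 were among those listed at 0. Of 18 skeletal muscle markers, 6 had reads, 76 and 84 with crush against 209 and 241 with sham, most of them from Mlip, and Ttn and Ckm were listed at 0. Reads of 4 of 13 fibroblast and perineurial markers numbered 0 and 7 with crush against 12 and 10 with sham, with Col1a1 and Pdgfra listed at 0, and those of 4 of 11 endothelial and pericyte markers 8 and 8 with crush against 7 and 11 with sham, with Pecam1 and Cdh5 listed at 0. The part of these shifts in the values below was not tested.

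The prefixes select mostly what the name says. Of the 83 hosts, 47 encode kinases or kinase-like proteins and 16 encode phosphatases. A further 5 encode regulatory subunits or activators of kinases and 11 encode regulatory subunits of phosphatases. The other 4 encode neither: Cdk5rap1 (a tRNA-modifying enzyme), Cdk5rap2 (a centrosome protein), Ppp1r21 (an endosomal protein) and Prkrip1 (a nuclear protein that binds the kinase PKR). They had 0 and 8 reads in crushed nerve and 2 and 2 after sham.

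Kinase and phosphatase circRNAs made up a small and slightly larger part of the circRNA reads after crush. They had 279 and 284 reads in the crush libraries, or 3.38% (95% interval 3.00% to 3.79%) and 3.15% (2.80% to 3.53%) of all junction reads. The sham libraries had 240 and 231 reads, or 2.66% (2.34% to 3.01%) and 2.65% (2.32% to 3.01%). The share averaged 3.26% ± 0.167 in crushed nerve and 2.65% ± 0.00996 in sham nerve (SD, n = 2 each), and the crush libraries lay above both sham libraries. The intervals of both crush libraries overlapped those of both sham libraries, and the sum over members was not tested.

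Most members were rare. Of the 157 circRNAs, 109 (69.4%) were called in 1 library, against 72.5% of the 4050 circRNAs of other hosts, and 13 (8.28%) were called in all 4, against 6.05%. Of the 83 hosts, 35 (42.2%) had reads in both groups, against 36.9% of other hosts. Another 26 (31.3%) had reads in crush libraries only, against 764 of 2244 other hosts, and 22 (26.5%) in sham libraries only, against 651. A count listed in the tables was 0 or at least 2, so a 0 can hide reads that the caller did not report. Such zeros also fell between replicates: in 12 of 70 cases, a member host with at least 5 reads in 1 library was listed at 0 in the other library of its group. A count of 5 reads has a 95% Poisson interval of 1.62 to 11.7, and one of 20 reads has 12.2 to 30.9.

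Most of the circles were exonic. These numbered 143 (91.1%), against 88.6% for other hosts. The genomic span of all 157, which includes introns and is not the length of the circle, had a median of 10741 bases against 8469.5 (quartiles 3932 to 20289 and 3114.25 to 19324). The longest was an intronic circRNA of Mapkap1 that spanned 105501 bases, and the shortest an exonic one of Rps6ka5 that spanned 218. A single circRNA was listed for 45 hosts. Among the 38 hosts with more, 81 of 112 circRNAs (72.3%) shared a start or an end with another circRNA of their host, against 63.9% for other hosts. Pik3c2a gave the most, with 7, and Ppp4r1 and Rps6ka5 had 6 each. These shares are descriptions and were not tested.

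Summed by symbol family, the Map2k, Map3k and Mapk hosts had 54 and 39 reads in crushed nerve, against 27 and 23 in sham nerve, which is 54.3 ± 15.7 with crush against 28.2 ± 2.53 reads per 10000 junction reads with sham (SD, n = 2 each). Of these reads, 85 were from Mapkap1, whose product is no MAP kinase, and the other 5 hosts had 24 and 17 with crush against 12 and 5 with sham. Hosts of the Cdk, Dyrk and Csnk families had 27.9 ± 3.41 after crush and 16.3 ± 5.20 after sham on the same scale. In both groups of families the crush libraries were above both sham libraries, as also for the Wnk, Tlk and Mark hosts, with 41.6 ± 2.27 with crush against 26.1 ± 15.0 with sham. The lipid kinases were the family with both crush libraries below both sham libraries, at 11.8 ± 5.66 with crush against 18.6 ± 1.96 with sham. The libraries of the groups overlapped for the Map4k and Stk hosts (36.4 ± 1.78 with crush against 36.7 ± 3.24 with sham), the Prk, Rps6k and Akt hosts (71.9 ± 14.3 with crush against 59.1 ± 7.39 with sham), the serine/threonine phosphatase subunits (66.0 ± 18.1 with crush against 60.4 ± 5.39 with sham) and the tyrosine and dual-specificity phosphatases (16.5 ± 7.95 with crush against 20.2 ± 7.50 with sham).

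**Figure D1:**
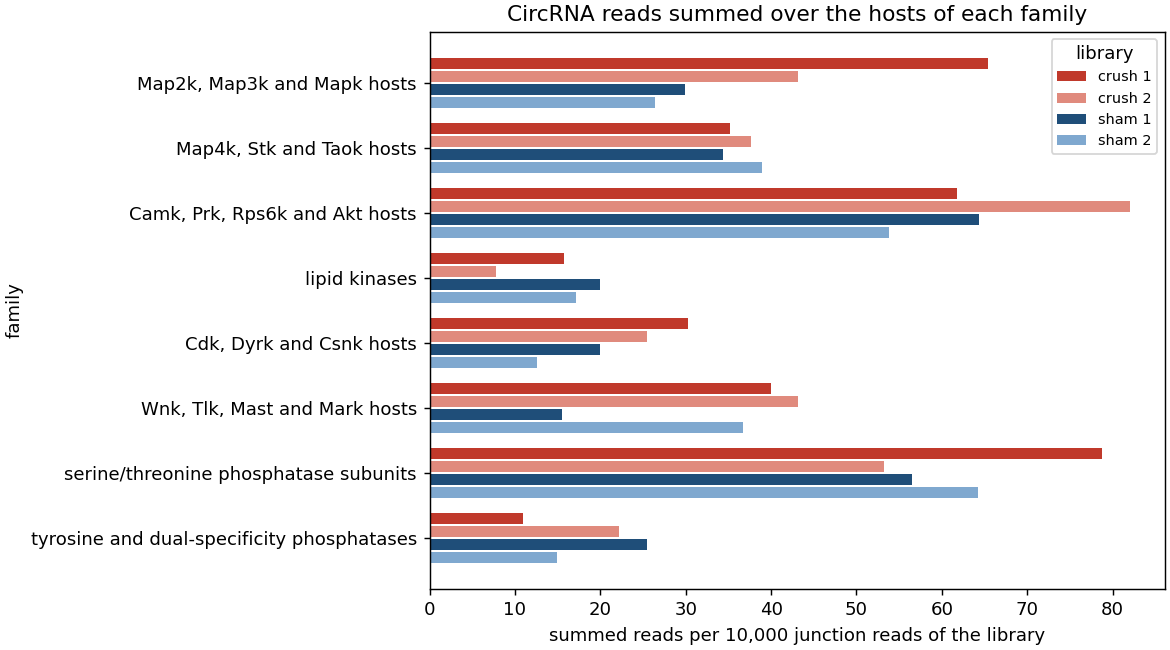
CircRNA reads summed over the hosts of each family, as reads per 10000 junction reads of the library (horizontal axis), with 1 bar for each of the 2 crush (red) and 2 sham (blue) libraries. The crush bars of the Map2k, Map3k and Mapk hosts both exceed the sham bars, those of the lipid kinases are both shorter, and the bars of the Map4k and Stk hosts differ little.

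Split by what the hosts encode, the 47 kinases had 200.4 ± 2.92 reads per 10000 in crushed nerve, against 163.5 ± 2.21 after sham, and the 5 regulators of kinases 39.1 ± 9.85 with crush against 20.3 ± 0.472 with sham. The 11 regulatory subunits of phosphatases had 59.1 ± 20.95 with crush against 37.9 ± 9.65 with sham, and the libraries of the groups overlapped. The 16 phosphatases themselves had 23.4 ± 10.8 with crush against 41.55 ± 13.4 with sham. Here both crush libraries lay below both sham libraries, though narrowly, at 31.0 in crush replicate 2 against 32.1 in sham replicate 2. Most of that difference lay in a single gene, Ppp3cc, which had 2 and 0 of the phosphatase reads after crush (13 and 28 in all) and 21 and 12 after sham (46 and 28 in all).

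No kinase or phosphatase host passed the test of summed reads between crush and sham (edgeR quasi-likelihood test, 0 of 20 hosts at adjusted p under 0.05). Over all genes, 10 of 434 tested hosts (2.30%) passed, 8 higher (1.84%) and 2 lower (0.461%). No tested member had a whole group at 0, against 9.91% of all tested hosts. At an unadjusted p under 0.05 there were 4 members (Ppp3cc, Ppp2r5a, Map3k5 and Prkd3), against 25.6% of all tested hosts. DESeq2 called 0 members and 32 of all 434 tested hosts (7.37%), and had 2 members at an unadjusted p under 0.05, against 82 of all tested hosts (18.9%). Of the 20, 7 reached the minimum of 5 reads in 2 libraries only through the group where they were high, as did 132 of all 434 tested hosts (30.4%). The 7 were Ppp3cc, Map3k5, Ppp1r12a, Rps6kc1, Map3k3, Prkdc and Rps6ka3. Their p-values, here and below, carry no support beyond the reads themselves. Both crush libraries lay above both sham libraries for 9 of the 20 (28.8% of all tested hosts did so) and below them for 5 (31.8%). The fitted log2 change was above 0 for 12, and its median was 0.52, against 0.11 over all tested hosts. With library totals from the SRPBM constants both medians were lower, 0.11 for the members and -0.30 over all tested hosts. The 20 tested hosts held 69.9% of the members' reads, and the other 63 had at most 16 reads each over the 4 libraries, with a median of 4. Among all 83, tested or not, 16 hosts had both crush libraries above both sham libraries (12.3% of all 2327 hosts did) and 11 had them below (12.0%).

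**Figure D2:**
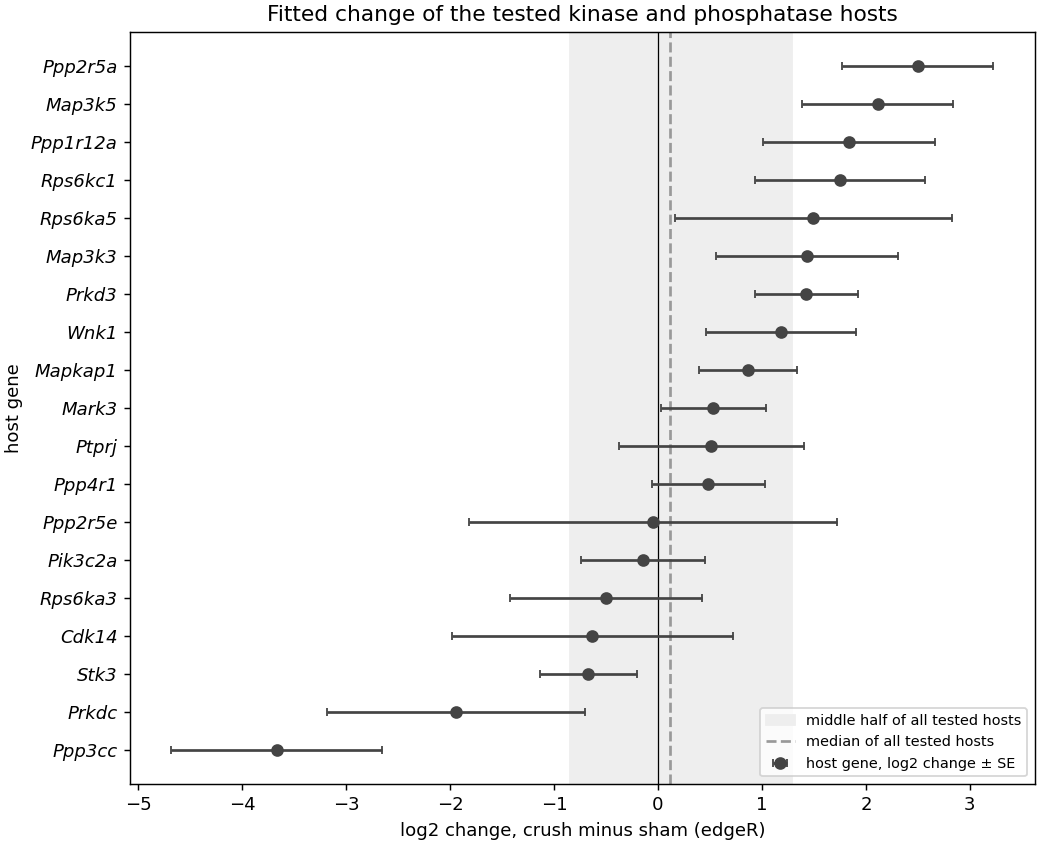
Fitted log2 change of summed circRNA reads, crush minus sham, with its standard error, for 19 of the 20 tested hosts (horizontal axis, edgeR). The grey band spans the quartiles of all 434 tested hosts and the dashed line their median of 0.11. Ppp2r5a, at 2.50, and Ppp3cc, at -3.67, lie at the ends, and no tested member passed the adjusted threshold.

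Among Map2k, Map3k and Mapk hosts, Map3k5 had the largest fitted change. It encodes ASK1, a kinase that relays oxidative and other stress to JNK and p38. It had 14 and 9 reads in crushed nerve, against 3 and 3 in sham nerve, which is 13.5 ± 4.95 with crush against 3.38 ± 0.0787 reads per 10000 with sham. Its log2 change was 2.11 ± 0.73 (SE) with adjusted p = 0.131. Nearly all came from 1 exonic circRNA (chromosome 1, 15488392 to 15494771 in Rnor_6.0), at 12 and 9 reads with crush against 3 and 3 with sham.

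Mapkap1, which encodes the SIN1 subunit of mTOR complex 2, a kinase complex of growth factor signalling, was one of the 2 hosts with the most reads, 85 in all. Its counts were 30 and 22 after crush and 15 and 18 in sham nerve, for a fitted change of 0.87 ± 0.47 (adjusted p = 0.296). The exonic circRNA at chromosome 3, 13510410 to 13522529, gave 95.3% of them and was the most abundant member circRNA. Map3k3, which encodes MEKK3, had 6 and 6 reads with crush against 3 and 2 with sham (log2 change 1.43 ± 0.87, adjusted p = 0.347). All 3 of these hosts had both crush libraries above both sham libraries. The remaining hosts of these families were near the limit of detection: Mapk6 (ERK3) had 2 and 2 reads in crushed nerve and was listed at 0 after sham, Mapk8 (JNK1) had 2 and 0 with crush against 3 and 0 with sham, and Map2k1 (MEK1) had 0 and 0 with crush against 3 and 0 with sham.

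Stk3 and Stk4 encode MST2 and MST1, the kinases at the head of the Hippo pathway, which restrains growth through the coactivators YAP and TAZ. Stk3 had 12 and 18 reads in crushed nerve and 25 and 30 in sham nerve, which is 17.2 ± 3.82 with crush against 31.1 ± 4.71 reads per 10000 with sham. Both crush libraries were below both sham libraries, but the log2 change of -0.67 ± 0.47 did not pass (adjusted p = 0.406). The difference lay in its main exonic circRNA (chromosome 7, 73834044 to 73848871), at 9 and 10 reads with crush against 21 and 21 with sham (log2 change -0.92 ± 0.42, adjusted p = 0.230, edgeR). Another Stk3 circRNA of 63583 bases span had 3 and 4 with crush against 4 and 2 with sham. Stk4 pointed the other way, with 6 and 4 reads in crushed nerve and 3 and 2 after sham, too few to be tested. Of the 7 other Map4k and Stk hosts, none had more than 6 reads in all. Stk17b, a death-associated kinase gene, had 2 and 4 after crush and was listed at 0 after sham.

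Among Prk, Rps6k and Akt hosts, Prkd3 was the host with the most reads. It encodes protein kinase D3, a target of diacylglycerol and protein kinase C. All its reads came from 1 exonic circRNA of 915 bases span (chromosome 6, 1613963 to 1614878). It had 18 and 22 reads in crushed nerve, against 8 and 9 in sham nerve, which is 23.1 ± 1.81 with crush against 9.59 ± 1.02 reads per 10000 with sham. The groups did not overlap, and the log2 change of 1.43 ± 0.50 had an adjusted p of 0.133 for the host and 0.104 for the circRNA.

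Its relative Prkd1 ran the other way, with 0 and 0 reads in crushed nerve and 2 and 5 after sham. This was 1.14-fold lower if 3 reads are taken for each library at 0. Prkcb, the gene of protein kinase C beta, an isoform abundant in immune cells, had 3 and 11 reads in crushed nerve and was listed at 0 after sham. By the same floor of 3 reads, Prkcb was 2.34-fold higher. Both Prkd1 and Prkcb had too few reads to be tested. Beside Prkcb, the leukocyte markers had 97.0 ± 11.9 reads per 10000 after crush and 4.53 ± 1.70 after sham. The other protein kinase C hosts, Prkca, Prkch, Prkci and Prkcq, had at most 6 reads each in all.

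Prkdc, the DNA-dependent protein kinase of double-strand break repair, had 0 and 3 reads with crush against 9 and 5 with sham (log2 change -1.94 ± 1.24, adjusted p = 0.368). The change was -0.92 without crush replicate 1 and -5.70 without crush replicate 2.

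The ribosomal S6 kinase family gave 4 hosts and no common direction. Rps6ka5 encodes MSK1, a kinase of histone H3 and CREB, and had 3 and 10 reads in crushed nerve, against 0 and 5 after sham (log2 change 1.50 ± 1.33, adjusted p = 0.529). The change was 2.20 without crush replicate 1 and 0.35 without sham replicate 1. The reads were spread over 6 circRNAs of at most 6 reads each. Rps6kc1, a ribosomal S6 kinase-like gene, had 7 and 8 with crush against 3 and 2 with sham (log2 change 1.75 ± 0.82, adjusted p = 0.237). Rps6ka3 encodes RSK2, a kinase downstream of ERK, and had 4 and 2 with crush against 5 and 5 with sham (log2 change -0.50 ± 0.92, adjusted p = 0.786). Rps6kb1, the p70 S6 kinase of mTOR signalling, had 2 and 0 with crush against 0 and 2 with sham.

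The lipid kinases were represented mainly by Pik3c2a, a class II phosphoinositide 3-kinase gene of endocytosis and membrane traffic. It had 10 and 7 reads in crushed nerve and 14 and 8 after sham, which overlapped (log2 change -0.14 ± 0.60, adjusted p = 0.935). Pip5k1b, a kinase gene of phosphatidylinositol 4,5-bisphosphate synthesis, had 0 and 0 with crush against 4 and 4 with sham. This was 1.30-fold lower if 3 reads are taken for each library at 0. Pik3r1, the p85 alpha regulatory subunit, had 3 and 0 with crush against 0 and 0 with sham, and Pik3c3, the VPS34 kinase of autophagy, had 0 and 0 with crush against 0 and 3 with sham.

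Wnk1 and Mark3 were the hosts with most reads in their family. Wnk1, a kinase gene of chloride cotransporter control, had 16 and 14 reads in crushed nerve and 3 and 12 in sham nerve, which is 17.4 ± 2.75 with crush against 8.54 ± 7.37 reads per 10000 with sham (log2 change 1.18 ± 0.72, adjusted p = 0.347). The sham libraries differed from each other by more than sham replicate 2 differed from either crush library. Without sham replicate 1 the change of its main circRNA (chromosome 4, 152526403 to 152536014) was -0.065, against 0.74 with all 4 libraries. Mark3, a kinase gene of microtubule-associated proteins, had 17 and 17 reads with crush against 11 and 16 with sham (log2 change 0.53 ± 0.51, adjusted p = 0.555). Tlk2, a chromatin assembly kinase gene, had 0 and 6 with crush against 0 and 2 with sham.

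Cyclin-dependent, Dyrk and casein kinase hosts were many and sparse. Cdk12, a kinase gene of the RNA polymerase II tail, had the most reads in this family, 8 and 4 after crush and 0 and 4 after sham, from a pair of circRNAs with the same start. Cdk14 was the single host tested, at 0 and 5 with crush against 6 and 3 with sham (log2 change -0.63 ± 1.35, adjusted p = 0.822). Dyrk1a, a dual-specificity kinase gene of neural development, had 5 and 4 with crush against 0 and 2 with sham, so both crush libraries exceeded both sham libraries. Each of its 4 circRNAs was called in 1 library only. Cdk13, Cdk17, Cdk19 and the casein kinase hosts Csnk1a1, Csnk1g1, Csnk1g3 and Csnk2a1 had between 2 and 11 reads in all.

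**Figure D3:**
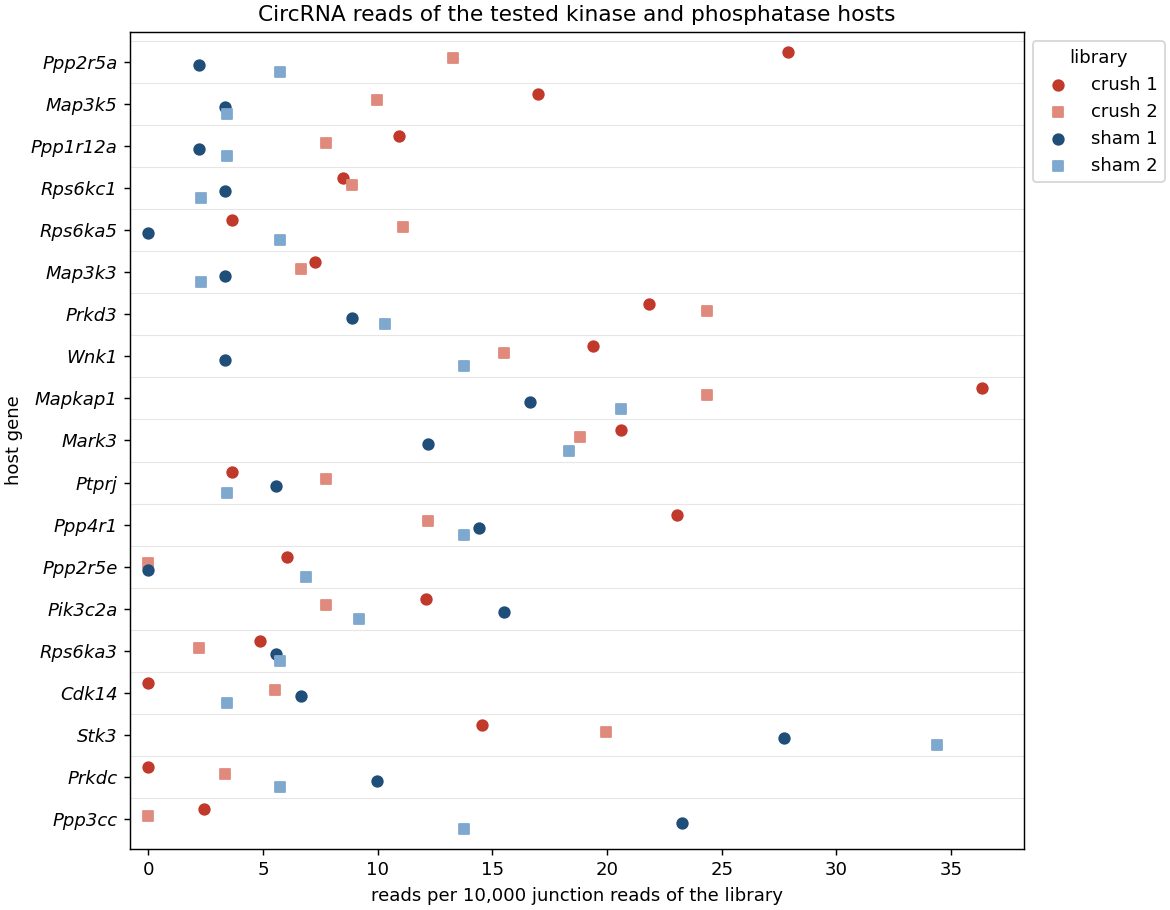
Reads per 10000 junction reads of the library (horizontal axis) for 19 of the 20 tested hosts, with 1 point per library, red for crush and blue for sham. Points of Prkd3, Map3k5 and Ppp2r5a separate with crush on the right, those of Stk3 and Ppp3cc with crush on the left, and Pik3c2a and Ppp4r1 overlap.

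Among phosphatase hosts, the largest differences lay in a calcineurin subunit and a subunit of protein phosphatase 2A, in opposite directions. Ppp3cc encodes the gamma catalytic subunit of calcineurin, the calcium-activated phosphatase that dephosphorylates NFAT. It had 2 and 0 reads in crushed nerve, against 21 and 12 in sham nerve, which is 1.21 ± 1.71 with crush against 18.5 ± 6.74 reads per 10000 with sham. The groups did not overlap and the log2 change was -3.67 ± 1.01, which missed the threshold (adjusted p = 0.0836). Only its sham reads brought this host into the test. The log2 change was -6.96 without crush replicate 1 and -2.53 without crush replicate 2. The alpha subunit gene Ppp3ca had 0 and 4 reads with crush against 0 and 3 with sham.

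Ppp2r5a encodes B56 alpha, which directs protein phosphatase 2A to substrates. Its 1 exonic circRNA (chromosome 13, 110049191 to 110052621) had 23 and 12 reads in crushed nerve, against 2 and 5 in sham nerve, which is 20.6 ± 10.3 with crush against 3.97 ± 2.48 reads per 10000 with sham. The groups did not overlap, and the log2 change of the host was 2.50 ± 0.73 (adjusted p = 0.0836). The change of the host was 3.24 without sham replicate 2 and 1.77 without sham replicate 1. It was 2.01 without crush replicate 1 and 3.11 without crush replicate 2. The related Ppp2r5e had 5 and 0 reads with crush against 0 and 6 with sham, where replicates differed more than groups (log2 change -0.05 ± 1.77).

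Ppp1r12a encodes MYPT1, the subunit that directs protein phosphatase 1 to myosin. It had 9 and 7 reads in crushed nerve, against 2 and 3 after sham (log2 change 1.84 ± 0.83, adjusted p = 0.225), without overlap. Ppp4r1, a regulatory subunit gene of protein phosphatase 4, had 19 and 11 with crush against 13 and 12 with sham over 6 circRNAs, which overlapped (log2 change 0.48 ± 0.54, adjusted p = 0.628). Ppp1r13b, the gene of the p53-binding protein ASPP1, had 0 and 3 with crush against 4 and 7 with sham, and the regulatory subunit gene Ppp1r37 had 3 and 5 with crush against 0 and 3 with sham. The scaffold gene Ppp1r9a (neurabin 1) had 5 reads in sham replicate 1 and none listed elsewhere.

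Of the 12 tyrosine and dual-specificity phosphatase hosts, Ptprj alone had enough reads to be tested. This receptor phosphatase gene had 3 and 7 reads in crushed nerve and 5 and 3 after sham (log2 change 0.51 ± 0.89, adjusted p = 0.769), which overlapped. The receptor phosphatases Ptpra and Ptprg had 0 and 0 reads after crush, against 4 and 3 for Ptpra in sham nerve and 2 and 3 for Ptprg. Ptpn4 likewise had 0 and 0 with crush against 2 and 2 with sham, and Ptpn9 had 2 and 3 with crush against 0 and 0 with sham. Ptpn12, the gene of PTP-PEST, a regulator of focal adhesions, had 2 and 0 with crush against 8 and 0 with sham. Ptprc, which encodes the leukocyte surface protein CD45, had 2 reads in crush replicate 1 and was listed at 0 in the other libraries. Ptpn1, Dusp16, Ptpn13, Ptprd and Ptprr were each called in 1 library, with at most 5 reads.

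Tested one circRNA at a time, 3 of 11 members with enough reads had an adjusted p under 0.05 (edgeR), 1 higher after crush and 2 lower. Over all hosts, 51 of 428 circRNAs passed (11.9%), 32 of them higher (7.48%) and 19 lower (4.44%). The 3 were the exonic circRNAs of Rps6kc1, Ppp3cc and Rps6ka3, and each was at 0 throughout 1 of the groups, as were 61 of all 428 tested circRNAs (14.3%). Each therefore reached the minimum of 5 reads in 2 libraries only through the group where it was high, so it had to differ to be tested at all. The same held for 45 of the 51 circRNAs called over all hosts (88.2%) and for 138 of all 428 tested (32.2%). The adjusted p-values of the 3 are given as values of the fit and carry no support beyond the reads themselves. None of the 8 other tested members was at 0 in a group, and none passed. Both crush libraries lay above both sham libraries for 5 of the 11 (26.9% of all tested circRNAs) and below for 3 (32.0%).

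The Ppp3cc circRNA (chromosome 15, 51936366 to 51944899, minus strand) had 0 and 0 reads after crush, against 21 and 12 reads in sham nerve, which is 18.5 ± 6.74 reads per 10000. Taking 3 reads for each library at 0, and the sham reads as counted, this was 5.32-fold lower. The edgeR fit gave an adjusted p of 0.0474, a value without support of its own, since only sham reads brought the circRNA into the test. The 2 reads that the host kept in crush replicate 1 came from a second circRNA with the same end and a span of 29619 bases instead of 8533. The circRNA of 8533 bases was not called with at least 2 reads required in 2 libraries (adjusted p = 0.135, edgeR) or with the replicate block. In these settings 0 of all 1355 and 0 of all 428 circRNAs were called. DESeq2 called it (adjusted p = 0.0129), as it did 30 of all 428 (7.01%). These fits reuse the same reads and add no support. Without a sham library the reads were too few to test.

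The Rps6ka3 circRNA (chromosome X, 37523957 to 37537375, plus strand) had 0 and 0 reads after crush, against 5 and 5 in sham nerve, at least 1.62-fold lower (adjusted p = 0.0454). In crush libraries the host was read from other back-splices. A pair of circRNAs classed as intronic, with the same start and spans of 36978 and 42699 bases, had 2 reads each in crush replicate 1, and an exonic one of 4838 bases had 2 in crush replicate 2. The circRNA read after sham was not called without a filter on low counts (adjusted p = 0.635, edgeR). Nor was it called with DESeq2, a minimum of 2 reads or the replicate block. With SRPBM totals it was called, as were 59 of all 428 (13.8%). These fits reuse the same reads and add no support.

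The Rps6kc1 circRNA (chromosome 13, 109457218 to 109471561, minus strand) had 7 and 6 reads after crush, against 0 and 0 in sham nerve (adjusted p = 0.0474, edgeR). With 3 reads for each library at 0, and the crush reads as counted, this was 2.24-fold higher. The 5 sham reads of the host lay on other circRNAs, 3 on one of 14720 bases span in sham replicate 1 and 2 on one of 53441 bases in sham replicate 2. This wider circle had the same end as the one read after crush. The circRNA read after crush was not called without a filter on low counts (adjusted p = 0.170, edgeR). Nor was it called with DESeq2, a minimum of 2 reads or the replicate block. With SRPBM totals it was called, as were 59 of all 428 (13.8%). These fits reuse the same reads and add no support. Unlike that of Ppp3cc, the calls of Rps6ka3 and Rps6kc1 rest on 5 to 7 reads a library.

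**Figure D4:**
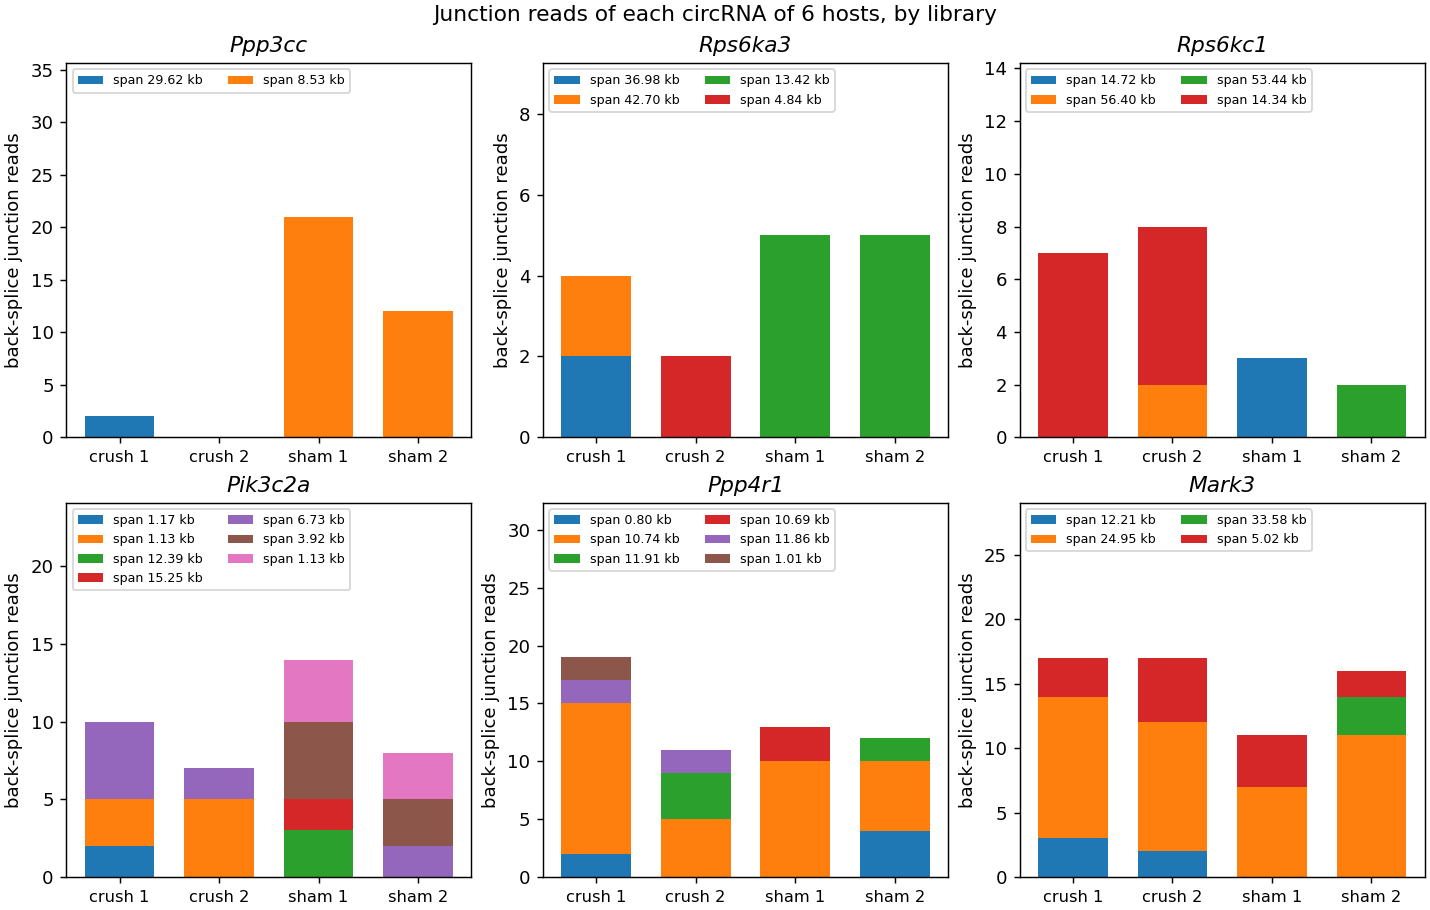
Back-splice junction reads (vertical axis) of each circRNA of Ppp3cc, Rps6ka3, Rps6kc1, Pik3c2a, Ppp4r1 and Mark3 in the 2 crush and 2 sham libraries, stacked by circRNA and labelled by genomic span in kb. No circRNA of Ppp3cc, Rps6ka3 or Rps6kc1 has reads in both groups, which holds for most member circRNAs. Some of these circles have few reads in a single library, and a change in circle was not shown. The circRNA that leads in Mark3 is the same in every library.

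Of the 157 member circRNAs, 33 had reads in both groups (21.0%, against 19.6% for other hosts), 72 in crush libraries only (45.9%, against 43.1%) and 52 in sham libraries only (33.1%, against 37.4%). These shares were near those of other hosts, and most member circRNAs were called in 1 library. Both crush libraries lay above both sham libraries for 15 of the 157 (6.98% of all 4942 circRNAs did) and below them for 12 (7.16%). Of the 7 circRNAs of Pik3c2a, 1 had reads in both groups, that at chromosome 1, 185261106 to 185267832, with 5 and 2 reads in crushed nerve and 0 and 2 after sham. An exonic circRNA of 1128 bases span had 3 and 5 reads in crushed nerve and 0 and 0 after sham. Those of 3918 and 1134 bases had 0 and 0 after crush, against 5 and 3 for the longer after sham and 4 and 3 for the shorter. None of them had enough reads to be tested, so a change in circle was not shown.

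In other hosts 1 circle led in both groups. For Mark3 it was the circRNA on chromosome 6 from 136059672 to 136084622, with 11 and 10 reads after crush and 7 and 11 in sham nerve (adjusted p = 0.668), which is 63.9% of the reads of Mark3. For Ppp4r1 it was that on chromosome 9 from 113534327 to 113545068, with 13 and 5 after crush and 10 and 6 in sham nerve (adjusted p = 0.808), or 61.8%. All 6 circles of Ppp4r1 shared a start or an end with another.

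Hosts of the same pathways that the prefixes do not take in gave no call either (edgeR, adjusted p under 0.05). Of 52 genes of receptor, Ras and PI3K-mTOR signalling, 22 had reads and 5 were tested, 3 of them fitted higher and 2 lower. Rasa2, a Ras GTPase-activating protein gene, had 51 and 58 reads in crushed nerve, against 17 and 11 after sham (log2 change 2.17 ± 0.41, adjusted p = 0.0522). Gab1, an adaptor gene of receptor kinases, had 2 and 5 with crush against 9 and 7 with sham (log2 change -0.96 ± 0.81, adjusted p = 0.501), and Nf1, a further Ras GTPase-activating gene, had 8 and 14 with crush against 20 and 19 with sham (log2 change -0.62 ± 0.51, adjusted p = 0.486). Rasa2 passed with DESeq2, exonic circRNAs only, the replicate block, at least 10 reads or no filter. Of all tested hosts, these settings called 7.37%, 5.01%, 5.53%, 23.4% and 1.68%, in that order. It did not pass with SRPBM totals or a minimum of 2 reads, where 3.23% and 0% were called. These fits reuse the same reads and add no support.

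Of 76 other protein kinase genes, 32 had reads and 6 were tested, 2 fitted higher and 4 lower. Syk, a kinase gene of immune receptors and a leukocyte marker here, had 13 and 12 reads in crushed nerve and 0 and 0 after sham (adjusted p = 0.0573). Only its crush reads brought Syk into the test, so this value carries no support beyond the reads. Nek1, a kinase gene of cilia and DNA repair, had 5 and 4 with crush against 24 and 18 with sham (log2 change -1.97 ± 0.54, adjusted p = 0.0836). Ripk2, a kinase gene of innate sensing, had 0 and 2 with crush against 6 and 5 with sham (adjusted p = 0.337, edgeR). Vrk1, a nuclear kinase gene, had 3 and 2 with crush against 5 and 5 with sham (adjusted p = 0.661, edgeR). Only sham reads brought Ripk2 and Vrk1 into the test, so their values and directions carry no support beyond the reads either. The list as a whole had 110.6 ± 1.30 reads per 10000 after crush and 111.6 ± 0.591 after sham. Of 37 other phosphatase genes, 16 had reads and 2 were tested, both fitted higher. Mtmr3, a phosphoinositide phosphatase gene, had 95 and 48 reads with crush against 21 and 31 with sham (log2 change 1.68 ± 0.50, adjusted p = 0.0836). This list as a whole had 170.2 ± 54.2 reads per 10000 after crush and 87.4 ± 1.24 after sham. The lists share some genes, and their sums were not tested.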

How the data were processed

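Total RNA libraries of 4 rat sciatic nerve samples were analysed from the deposited tables. Per the file headers, the authors deposited raw back-splice junction read counts for each circRNA together with SRPBM, a deposited signal equal to the count times 1 constant per library. Per the submitters' processing notes, the tools included BWA, CASAVA 1.8 and edgeR and the build was Rnor_6.0, with no role stated for any tool. Which program called the circRNAs: not given in the sources used here.

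Counts of circRNAs with 1 host gene were summed per host. The 3 circRNAs with 2 host genes stayed out, and none of them named a member. The RefSeq gene table of GRCr8 held all 83 member symbols. Hosts and circRNAs with at least 5 reads in at least 2 libraries were tested over the whole table with edgeR 4.0.16 in R 4.3.3 (quasi-likelihood, TMM scaling, two-sided, Benjamini-Hochberg adjustment, threshold 0.05). Levels are reads per 10000 junction reads of a library and carry no TMM scaling. Shares have exact Clopper-Pearson 95% intervals. These intervals, and floors of 3 reads in each library listed at 0, cover counting error only. Folds against these floors leave out the counting error of the group with reads, so they are no lower bounds. The tests were tried on simulated counts before use.

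Alternatives were DESeq2 1.42.0, SRPBM totals, other filters, exonic circRNAs only, single libraries left out and a replicate block. Same-numbered libraries did not deviate together (correlation -0.055 over tested hosts, -0.111 over tested circRNAs), so the numbers were not taken as pairs. Named features are members past the threshold, the 15 tested hosts with the highest mean level, the 8 hosts per direction with the smallest p and no overlap of the groups, hosts listed at 0 in 1 group only, the 8 most abundant circRNAs, hosts with 5 or more circRNAs and the leading host of each family. The members and gene lists were chosen with earlier results of these data known. Other hosts named were chosen after their values were seen. A few features that these rules select are not reported here, though counts and sums include them.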

Additional observations from a re-analysis of the deposited data

How the results depend on the processing

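Depth limited the test to 20 of 83 kinase and phosphatase hosts. The count of member hosts past the threshold, 0, was 2 of 10 with at least 10 reads in 2 libraries (Ppp2r5a and Ppp3cc), against 44 of all 188 hosts (23.4%). Without a filter it was 1 of 83 (Ppp3cc), against 39 of all 2327 (1.68%). The count of member circRNAs, 3, was 1 with DESeq2, where 9 of 11 had an adjusted p and 30 of all 428 were called (7.01%). It was 2 of 157 without a filter (52 of all 4942, 1.05%). With a minimum of 2 reads it was 0 of 48 (0 of all 1355), and with 10 reads 1 of 8 (23 of all 165, 13.9%). With the replicate block it was 0 for circRNAs (0 of all 428) and 0 for hosts (24 of all 434, 5.53%). A crossed replicate block, added after seeing the data, also gave 0 and 0. The median log2 change of member hosts, 0.52, was 0.11 with SRPBM totals and 0.35 to 0.98 with single libraries left out. Over all tested hosts SRPBM totals moved the share fitted higher to 43.1%, from 53.5%, and 12 of 20 members were higher under both. The member share differed by 0.610 percentage points, and by 0.843 among exonic circRNAs.

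For the receptor, Ras and PI3K-mTOR list, 0 calls became 1 with DESeq2, exonic circRNAs only or the replicate block, 2 with at least 10 reads and 3 without a filter. For other protein kinases, 0 became 1 with DESeq2, exonic circRNAs only, no filter or the replicate block, and 2 with at least 10 reads. For other phosphatases, 0 became 2 with at least 10 reads and 1 without a filter. Over all tested hosts, 7.37% were called with DESeq2, 5.01% with exonic circRNAs only and 5.53% with the replicate block. The share was 23.4% with at least 10 reads and 1.68% without a filter. Among named results, 234 of 260 comparisons kept direction and side of the threshold, and 6 turned sign, all with a library left out: the Mark3 circRNA (-0.0056) and Wnk1 circRNA (-0.065) without sham replicate 1, Pik3c2a (0.31 without crush replicate 2, 0.075 without sham replicate 1), the Ppp4r1 circRNA (-0.41 without crush replicate 1) and Rps6ka3 (0.12 without crush replicate 2). With single libraries left out, their ranges were -0.0056 to 0.74 for the Mark3 circRNA, -0.065 to 1.99 for the Wnk1 circRNA, -0.52 to 0.31 for Pik3c2a, -0.41 to 1.07 for the Ppp4r1 circRNA and -1.01 to 0.12 for Rps6ka3. The cause was not tested.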
